A study of Mus musculus with 6 samples.

Results

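Expression of 10 genes of the tumour necrosis factor (TNF) superfamily was followed in 6 libraries of cultured mouse marrow cells: 7 ligand genes (Tnf, Tnfsf9, Tnfsf10, Tnfsf12, Tnfsf13, Tnfsf13b and Tnfsf14) and 3 receptor genes (Fas, Tnfrsf10b and Tnfrsf1b). They were picked by name, and their identifiers were matched to the GENCODE M21 annotation of mouse build GRCm38. All 10 were found among the 49328 genes with values, and 6 of them were high enough to be tested, along with 11856 other genes. The R group held 3 libraries of mesenchymal stromal cells (MSCs) that had been isolated from CB6F1 mice with acute graft-versus-host disease (aGVHD) and exposed in culture to an agent labelled only R, at 0.5 um as the label writes it. The vehicle group held 3 libraries of the same kind of cells exposed to DMSO. The cells of both groups came from digested whole bone marrow and were cultured with serum and antibiotics in DMEM rich in glucose. No cell sort, treatment time or number of animals is given in the labels, and the identity of R is likewise not stated there. The question was how the mRNA levels of these ligands and receptors differed between R-treated and vehicle-treated cells.

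TNF family ligands are trimeric proteins, most of them made on the cell surface and many released by proteases. Their receptors fall into those with an intracellular death domain, which can start caspase-driven cell death, and those that bind TRAF adaptors and turn on NF-kappaB. Fas and Tnfrsf10b, the receptor of the TRAIL ligand in mice, carry a death domain. Tnfrsf1b, which encodes TNF receptor type II, has none and signals through TRAF proteins. In marrow, activated macrophages are a main source of TNF, and acute graft-versus-host disease is a setting in which TNF and the Fas pathway are known to take part in tissue damage.

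Levels are given in FPKM, the unit of the authors' table, which counts fragments per kilobase of gene relative to the size of the library. Genes with at least 1 FPKM in at least 3 libraries were tested with limma on log2(FPKM + 1). A gene passed the threshold where p, adjusted over all tested genes by the Benjamini-Hochberg method, was under 0.05. A log2 change is the R mean minus the vehicle mean on that scale, with its moderated standard error (SE). "Fell" and "rose" are used of genes that passed.

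The depth was estimated from the steps of the values, as 17055000 to 21755000 reads per library. Of 12 stromal markers 9 were high enough to be tested, among them Col1a1, Pdgfrb and Prrx1, while Lepr, Nt5e and Thy1 were not. All 12 summed to 659 to 1050 FPKM in the R libraries and 533 to 847 FPKM in the vehicle libraries. At the threshold 1 of them, Ly6a, was lower and 0 were higher in R. For Col1a1, Pdgfrb and Prrx1 all R values lay above all vehicle values, beside 13.9% of tested genes. For Ly6a and Thy1 all lay below. Transcripts of macrophages were abundant in both groups: all 12 listed macrophage markers were tested, and 3 (Itgam, Aif1 and Fcgr1) were lower and 0 higher in R at the threshold, where 4.43% of all tested genes were lower. All R values lay below all vehicle values for 8 of the 12, beside 15.5% of tested genes. The macrophage sum was 11400 to 14100 FPKM in the R libraries and 13300 to 17500 FPKM in the vehicle libraries, most of it Lyz2. The 11 T and NK cell markers summed to 2.45 to 7.07 FPKM in the R libraries and 6.98 to 12.7 FPKM in the vehicle libraries, with Ncr1 and Klrb1c listed at 0 in all 6 libraries. Of the 11, 3 were tested and 1 was lower in R, the cytotoxic granule gene Nkg7, with 0, 0.243 and 0.182 FPKM in R and 3.01, 2.16 and 1.48 FPKM in vehicle (limma adjusted p = 0.0079). It met the minimum for testing through the vehicle libraries alone. For 6 of the 11 (Cd3g, Cd8a, Nkg7, Prf1, Gzmb and Trbc2) all R values lay below all vehicle values. Beside them stand 15.5% of tested genes and 9.87% of untested genes with an average of at least 10 reads. Cd4 was the marker with the opposite order, at 4.25, 1.43 and 1.58 FPKM in R and 0.974, 1.27 and 0.942 FPKM in vehicle. Neutrophil markers summed to 5.99 to 9.5 FPKM in the R libraries and 7.64 to 14.3 FPKM in the vehicle libraries, with Mpo and S100a9 listed at 0 throughout. Endothelial markers summed to 2.19 to 5.26 FPKM in the R libraries and 1.29 to 1.88 FPKM in the vehicle libraries. For 3 of these 5 (Pecam1, Cdh5 and Emcn) all R values lay above all vehicle values. The share higher in R was 13.9% of tested genes, and 23.4% of untested genes with at least 10 reads were separated in either direction. Only Cdh5 was tested, and it did not pass. B cell markers summed to 0.0773 to 0.307 FPKM in the R libraries and 0.145 to 0.371 FPKM in the vehicle libraries. In such bulk RNA, fewer cells of a type and less RNA per cell cannot be told apart. The part of other cell types in the results that follow was not tested.

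Tnf and Tnfsf9 were the ligand genes that fell in R at the threshold, and the receptor gene Tnfrsf10b rose. In limma, 2 of the 6 tested members were lower and 1 was higher in R, where 4.43% of all tested genes were lower and 2.39% higher, so that 6.82% passed in either direction. Tnfrsf1b, Fas and Tnfsf12 did not pass. The 4 members that were too low to be tested were ligand genes, and 3 of them, Tnfsf10, Tnfsf13b and Tnfsf14, had all R values below all vehicle values. Such an order was found in 9.87% of untested genes with an average of at least 10 reads. The groups did not overlap in 3 of the 6 tested members, beside 29.3% of all tested genes.

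**Figure D1:**
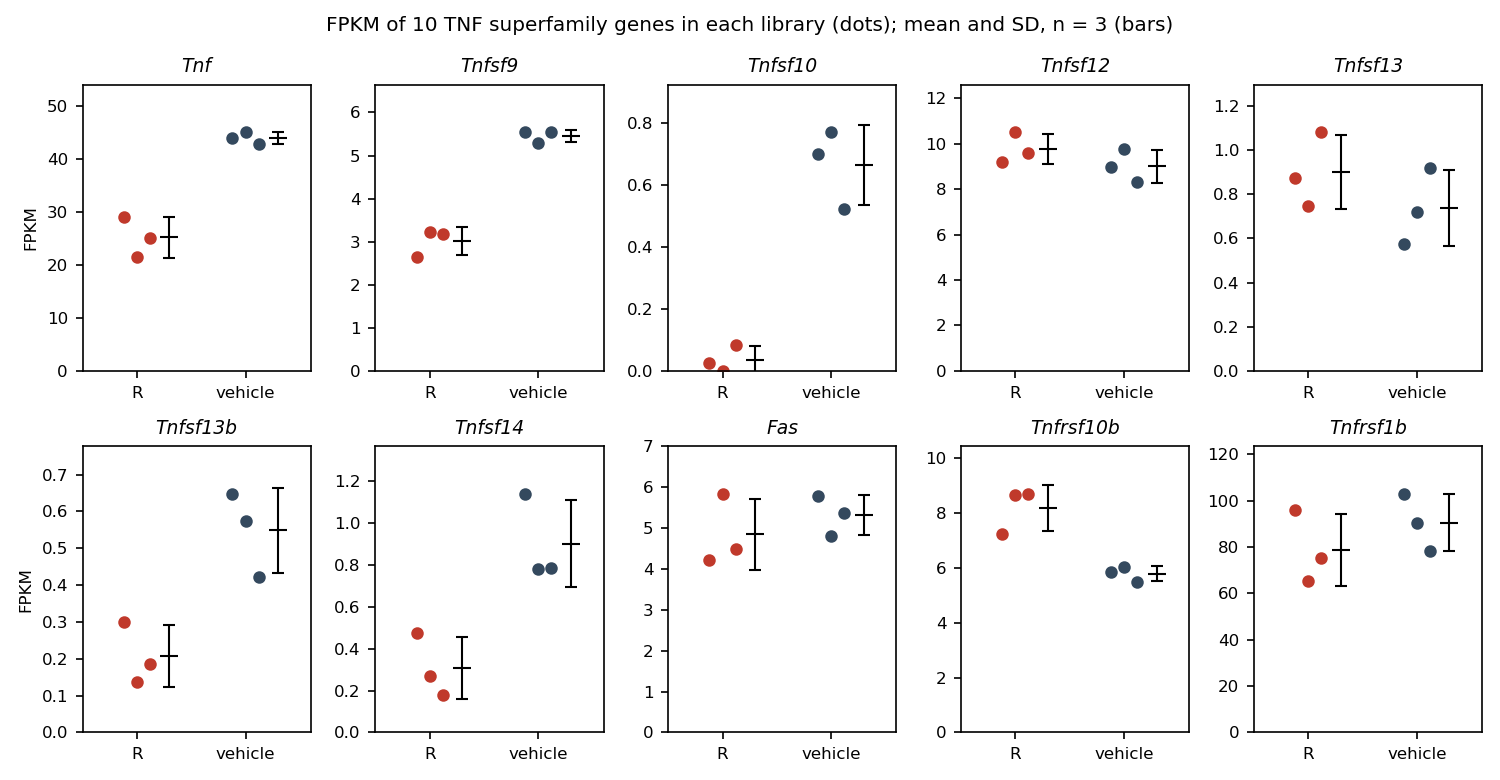
FPKM (vertical axis, from 0) of each of the 10 genes in the 3 R libraries (left, red) and the 3 vehicle libraries (right, dark), with the group mean and SD beside them (the lower part of the SD bar of Tnfsf10 in R is clipped at 0). The groups are separate for Tnf, Tnfsf9, Tnfsf10, Tnfsf13b, Tnfsf14 and Tnfrsf10b, and they overlap for Tnfsf12, Tnfsf13, Fas and Tnfrsf1b.

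Tnf (ENSMUSG00000024401; chromosome 17, 35199381 to 35202007, minus strand) encodes TNF itself, the founding cytokine of the family. Its level was 29.1, 21.4 and 25.1 FPKM in R replicates 1, 2 and 3, against 44, 45 and 42.7 FPKM in the vehicle replicates. The 3 vehicle libraries lay close together and the R libraries were spread more widely, all of them below the lowest vehicle library, as in 15.5% of tested genes. Means were 25.2 ± 3.83 FPKM in R and 43.9 ± 1.16 FPKM in vehicle (SD, n = 3 each), a level 1.74-fold lower in R. The log2 change was -0.79 (SE 0.12, limma adjusted p = 0.011). Those levels rested on 630 to 1036 estimated reads in an R library and 1230 to 1401 in a vehicle library. The call held under each alternative run, with adjusted p from 0.0077 to 0.048. Among tested genes Tnf stood at the 81.3rd percentile of mean level in R and the 89.5th in vehicle.

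The lymphotoxin genes Lta and Ltb, which encode the nearest relatives of TNF, flank Tnf on chromosome 17. Both were under the minimum for testing. Lta had 0.465, 0.0804 and 0.24 FPKM in R and 0.297, 0.347 and 0.253 FPKM in vehicle. Ltb had 0.637, 0.33 and 0.621 FPKM in R and 0.85, 0.986 and 0.56 FPKM in vehicle. For both neighbours the groups overlapped.

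Tnfsf9 (ENSMUSG00000035678; chromosome 17, 57105325 to 57107757, plus strand) encodes a costimulatory ligand that antigen-presenting cells show to activated T cells. It had 2.64, 3.23 and 3.17 FPKM in R and 5.54, 5.3 and 5.54 FPKM in vehicle. The groups did not overlap, and each was narrow. Means were 3.01 ± 0.328 FPKM in R and 5.46 ± 0.141 FPKM in vehicle (SD, n = 3 each), or 1.81-fold lower in R. The log2 change was -0.69 (SE 0.1, limma adjusted p = 0.0096), and the call held under each alternative run, with adjusted p up to 0.045. The change on this scale was -0.38 with a pseudocount of 5 and -0.84 with one of 0.1. A run with a minimum of 5 FPKM took Tnfsf9 in through the vehicle libraries alone and is no support for its fall. From its start at 57105325 up to 57105942, Tnfsf9 overlaps Gm11110, a noncoding RNA gene on the opposite strand (57091370 to 57105942). Since the strandedness of the libraries is not given, reads there cannot be assigned. Gm11110 itself ranged over 0.722 to 1.11 FPKM in the R libraries and 0.932 to 1.61 FPKM in the vehicle libraries.

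Tnfsf10 (ENSMUSG00000039304; chromosome 3, 27317028 to 27342427, plus strand) encodes TRAIL, the death ligand that binds the product of Tnfrsf10b, and had the largest relative difference of the 10 genes. Its level was 0.0262, 0 and 0.0841 FPKM in R, against 0.701, 0.77 and 0.522 FPKM in vehicle. These stand for 3, 0 and 8 estimated reads in the R libraries and 63, 76 and 55 in the vehicle libraries. Scaled to depth, the 11 reads of the R group and the 194 of the vehicle group gave a level 18.3-fold lower in R (95% interval 9.99 to 37.2, exact binomial, counting error only). With 3 libraries a group, an exact permutation test cannot go below p = 0.1, which is the value it gave for Tnfsf10 (two-sided). When genes were tested without a filter, the log2 change of Tnfsf10 was -0.68 (SE 0.08, limma adjusted p = 0.02). With a filter of at least 10 reads on average and a pseudocount of 0.1, chosen after seeing the data, it was -2.51 (SE 0.31, limma adjusted p = 0.0043). Tnfsf10 met that filter through the vehicle libraries alone, so this last value is no support for a lower level in R.

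Tnfsf14 (ENSMUSG00000005824; chromosome 17, 57189492 to 57194177, minus strand) encodes LIGHT, a ligand of the receptors made from Tnfrsf14 and Ltbr. It had 0.473, 0.271 and 0.18 FPKM in R and 1.14, 0.78 and 0.785 FPKM in vehicle, with no overlap. The estimated reads were 6 to 19 per R library and 27 to 36 per vehicle library, and the level scaled to depth was 2.8-fold lower in R (95% interval 1.87 to 4.29, counting error only). Its exact permutation p was 0.1, and limma gave adjusted p = 0.13 without a filter and 0.052 with the filter on reads. Cd70, a family gene that lies between Tnfsf9 and Tnfsf14, was listed at 0 in all 6 libraries.

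Tnfsf13b (ENSMUSG00000031497; chromosome 8, 10006467 to 10039072, plus strand) encodes BAFF, a survival factor of B cells. It had 0.301, 0.138 and 0.185 FPKM in R and 0.648, 0.575 and 0.422 FPKM in vehicle. The highest R library, replicate 1, lay below the lowest vehicle library, replicate 3. That is 17 to 45 estimated reads per R library and 58 to 76 per vehicle library, a level 2.53-fold lower in R (95% interval 1.96 to 3.3, counting error only). The exact permutation p was 0.1, and limma gave adjusted p = 0.14 without a filter and 0.069 with the filter on reads. Among the 2746 untested genes with an average of at least 10 reads, 9.87% had all R values below all vehicle values, and 23.4% were separated in either direction.

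**Figure D2:**
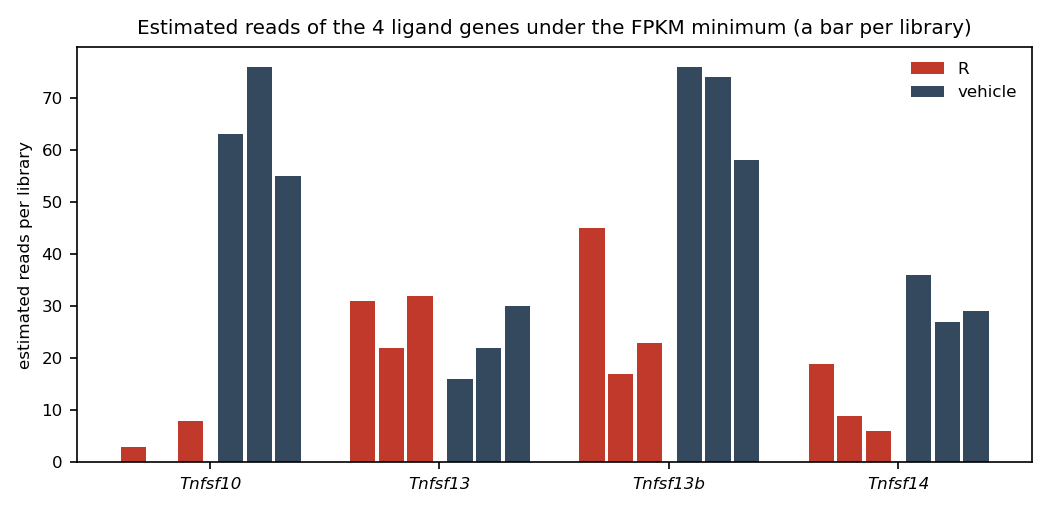
Estimated reads per library (vertical axis) of the 4 ligand genes under the FPKM minimum, with 1 bar per library for R (red, left in each gene) and vehicle (dark, right). The Tnfsf10 bars of R stand for 3, 0 and 8 reads beside 63, 76 and 55 in vehicle, while those of Tnfsf13 overlap.

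Tnfsf12 and Tnfsf13 lie side by side on the minus strand of chromosome 11 (69686250 to 69695849 and 69682846 to 69685784). Tnfsf12 (ENSMUSG00000097328) encodes TWEAK, a ligand that acts on stromal and injured tissue, and Tnfsf13 (ENSMUSG00000089669) encodes APRIL, a plasma cell survival factor. Tnfsf12 had 9.2, 10.5 and 9.57 FPKM in R and 8.97, 9.76 and 8.31 FPKM in vehicle. The groups overlapped, and the log2 change of 0.1 (SE 0.09) did not pass in limma (adjusted p = 0.57). Tnfsf13 had 0.871, 0.747 and 1.08 FPKM in R and 0.573, 0.717 and 0.916 FPKM in vehicle, also with overlap (exact permutation p = 0.4, two-sided). Both genes overlap Tnfsfm13, an annotated gene on the same strand that spans them, and they overlap the antisense gene Tnfsf13os, so reads may be split between these records and the values of both are uncertain. Tnfsfm13 ranged over 0.576 to 0.941 FPKM in the R libraries and 0.85 to 1.31 FPKM in the vehicle libraries.

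Tnfrsf10b (ENSMUSG00000022074; chromosome 14, 69767472 to 69784411, plus strand) was the receptor gene that rose. It had 7.22, 8.65 and 8.7 FPKM in R, against 5.84, 6.02 and 5.5 FPKM in vehicle. R replicate 1 was the lowest of its group and still above the highest vehicle library. Means were 8.19 ± 0.84 FPKM in R and 5.79 ± 0.264 FPKM in vehicle (SD, n = 3 each), or 1.42-fold higher in R. The log2 change was 0.43 (SE 0.1, limma adjusted p = 0.047). This call lay at the edge of the threshold: it was lost whichever of the 6 libraries was left out (adjusted p = 0.052 to 0.15). The receptor gene was thus measured as higher in R while its ligand gene Tnfsf10 had 0 to 8 reads there. Groups without overlap and higher in R were found in 13.9% of tested genes.

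Fas (ENSMUSG00000024778; chromosome 19, 34290666 to 34327772, plus strand) encodes the receptor through which cytotoxic lymphocytes kill target cells. Its level was 4.21, 5.84 and 4.49 FPKM in R and 5.79, 4.8 and 5.38 FPKM in vehicle. The values interleaved, and the log2 change of -0.12 (SE 0.13) did not pass in limma (adjusted p = 0.63). Fasl, the ligand gene of Fas and a product of T and NK cells, had 0.0475, 0 and 0 FPKM in R and 0.121, 0.165 and 0.0516 FPKM in vehicle. Both groups were far under the minimum for testing, and no fold is given for Fasl.

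Tnfrsf1b (ENSMUSG00000028599; chromosome 4, 145213463 to 145246870, minus strand) was the most abundant of the 10 genes. It had 95.8, 65.2 and 75.3 FPKM in R and 103, 90.3 and 78.3 FPKM in vehicle. R replicate 1 lay above the vehicle replicates 2 and 3. The log2 change was -0.21 (SE 0.16, limma adjusted p = 0.49). Tnfrsf1a, which encodes the death-domain receptor of TNF, was as abundant, at 87.6 ± 3.61 FPKM in R and 89.9 ± 4.78 FPKM in vehicle (SD, n = 3 each; log2 change -0.04, SE 0.08, limma adjusted p = 0.84). Neither TNF receptor gene passed the threshold, while Tnf did. The differences between these changes were not tested.

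Ordered by mean level, which FPKM allows across genes because it is per length, both groups began with Tnfrsf1b, Tnf, Tnfsf12 and Tnfrsf10b. In R the order went on with Fas, Tnfsf9, Tnfsf13, Tnfsf14, Tnfsf13b and Tnfsf10. The values of Tnfsf14 and Tnfsf13b overlapped, and those of the other neighbours did not. In vehicle, Tnfrsf10b, Tnfsf9 and Fas followed each other at 5.79 ± 0.264, 5.46 ± 0.141 and 5.32 ± 0.498 FPKM, and the values of Tnfsf9 overlapped those of both others. Below them Tnfsf14, Tnfsf13, Tnfsf10 and Tnfsf13b followed within the range of 0.902 to 0.548 FPKM on average, each overlapping its neighbour.

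Promoter bases of Tnf, of Tnfsf10 and Tnfsf13b, whose R values were all below the vehicle values, and of Tnfrsf1b, which did not pass, are shown so that their letters can be set beside these levels. RefSeq promoters on GRCm38.p6 were matched by symbol for 7 of the 10 genes, and not for Tnfsf9, Tnfsf12 and Tnfrsf10b. In the 250 bases before each start, 4 motifs were searched on both strands: TTCNNNGAA, the letters that STAT factors bind (GAS), GAAANNGAA, a core of the interferon-stimulated response element (ISRE), GGGANTTTC, most of a canonical NF-kappaB site, and the TATA box TATAAA. They are found in 7.02%, 7.13%, 0.941% and 12.4% of the 32851 RefSeq promoter windows of that length. Capitals below mark the matches, which did not overlap each other, and all runs read 5′ to 3′ on the strand of the gene. The Tnf window (chr17:35202008-35202257, minus strand) holds a TATA box, and the letters of the other 3 motifs are not in it.
Tnf: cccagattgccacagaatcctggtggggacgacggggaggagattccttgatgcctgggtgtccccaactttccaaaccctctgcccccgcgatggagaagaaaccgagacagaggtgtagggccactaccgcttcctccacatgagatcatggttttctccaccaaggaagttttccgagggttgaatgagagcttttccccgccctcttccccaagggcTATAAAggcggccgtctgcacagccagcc
The window before Tnfsf10 (chr3:27316827-27317027, plus strand, cut at the annotated start of the gene) holds no match.
Tnfsf10: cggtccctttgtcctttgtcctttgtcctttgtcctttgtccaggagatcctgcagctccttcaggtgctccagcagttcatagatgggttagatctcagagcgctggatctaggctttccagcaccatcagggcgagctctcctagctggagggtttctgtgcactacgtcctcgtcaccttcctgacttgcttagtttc
Beside a second start of Tnfsf13b in the RefSeq table, 30 bases (chr8:10006603-10006632, plus strand) hold an ISRE match.
Tnfsf13b: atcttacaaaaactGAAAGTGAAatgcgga
The Tnfrsf1b window (chr4:145246871-145247120, minus strand) holds a GAS match and, next to the start, an ISRE match on the opposite strand.
Tnfrsf1b: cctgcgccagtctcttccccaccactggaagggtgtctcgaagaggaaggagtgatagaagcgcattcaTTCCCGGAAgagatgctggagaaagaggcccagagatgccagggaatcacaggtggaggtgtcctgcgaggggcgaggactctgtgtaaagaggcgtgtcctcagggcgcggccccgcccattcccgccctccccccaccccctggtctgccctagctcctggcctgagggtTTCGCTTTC
The other match was a GAS in the Fas window, TTCTGGGAA, 93 bases before the start. No match was found in the windows of Tnfsf14 (chr17:57194182-57194431, minus strand) and Tnfsf13, or in the window before the annotated start of Tnfsf13b (chr8:10006217-10006466, plus strand). Of the 7 genes, 2 had a GAS match and 2 an ISRE match, with both starts of Tnfsf13b searched. Matches to GAS or ISRE stood before Tnfrsf1b and Fas, whose levels overlapped between the groups. Another stood before the second start of Tnfsf13b, whose levels did not overlap. Tnf, Tnfsf10 and Tnfsf14, whose levels did not overlap either, had none, and nor did Tnfsf13, whose levels overlapped. A match is a description of letters and was not tested for binding. A link between matches and levels was not tested.

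The receptors of these ligands were set beside them, as partners named for their known binding and with their values known. Tnfrsf14, the receptor of LIGHT on leukocytes, fell in R to 5.08, 2.98 and 5.43 FPKM, against 19, 17.5 and 11 FPKM in vehicle (log2 change -1.61, SE 0.25, limma adjusted p = 0.013). All R libraries lay well below the lowest vehicle library, and the call ended with unfiltered genes (adjusted p = 0.056). Ltbr, the other LIGHT receptor and a stromal one, was at 62.9 ± 6.77 FPKM in R and 58.6 ± 2.2 FPKM in vehicle (SD, n = 3 each; limma adjusted p = 0.62). Tnfrsf9, the receptor of the Tnfsf9 product and itself induced on activated cells, was under the minimum for testing, with 0.152, 0.0409 and 0.122 FPKM in R and 0.882, 1.1 and 0.734 FPKM in vehicle. Its groups did not overlap. For Tnf, Tnfsf14, Tnfsf9, Tnfsf13b and Tnfsf10 all R values of the ligand lay below the vehicle values. The same held for the receptor genes Tnfrsf14, Tnfrsf9 and Tnfrsf13b. Beside them stand 15.5% of tested genes and 9.87% of untested genes with an average of at least 10 reads. Tnfrsf10b, the receptor gene for Tnfsf10, had the opposite order. Ltbr and both Tnf receptors overlapped, as did Tnfrsf13c and Tnfrsf17 at 0.136 FPKM or less.

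Tnfrsf12a, the receptor of TWEAK, had 98.4, 113 and 88.1 FPKM in R and 36.9, 46.2 and 73 FPKM in vehicle. The groups did not overlap, but vehicle replicate 3 stood nearer to R than the other vehicle libraries, and the gene missed the threshold (log2 change 0.98, SE 0.24, limma adjusted p = 0.055). Without vehicle replicate 3 it passed (log2 change 1.24, limma adjusted p = 0.0072). Its ligand gene Tnfsf12 was level in the same libraries, as given above. Tnfrsf13b, a receptor of BAFF and APRIL, had 6.34, 6.67 and 5.58 FPKM in R and 10, 7.43 and 6.82 FPKM in vehicle. Its groups did not overlap, but the highest R library was close to the lowest vehicle library, and it did not pass (log2 change -0.32, limma adjusted p = 0.23).

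**Figure D3:**
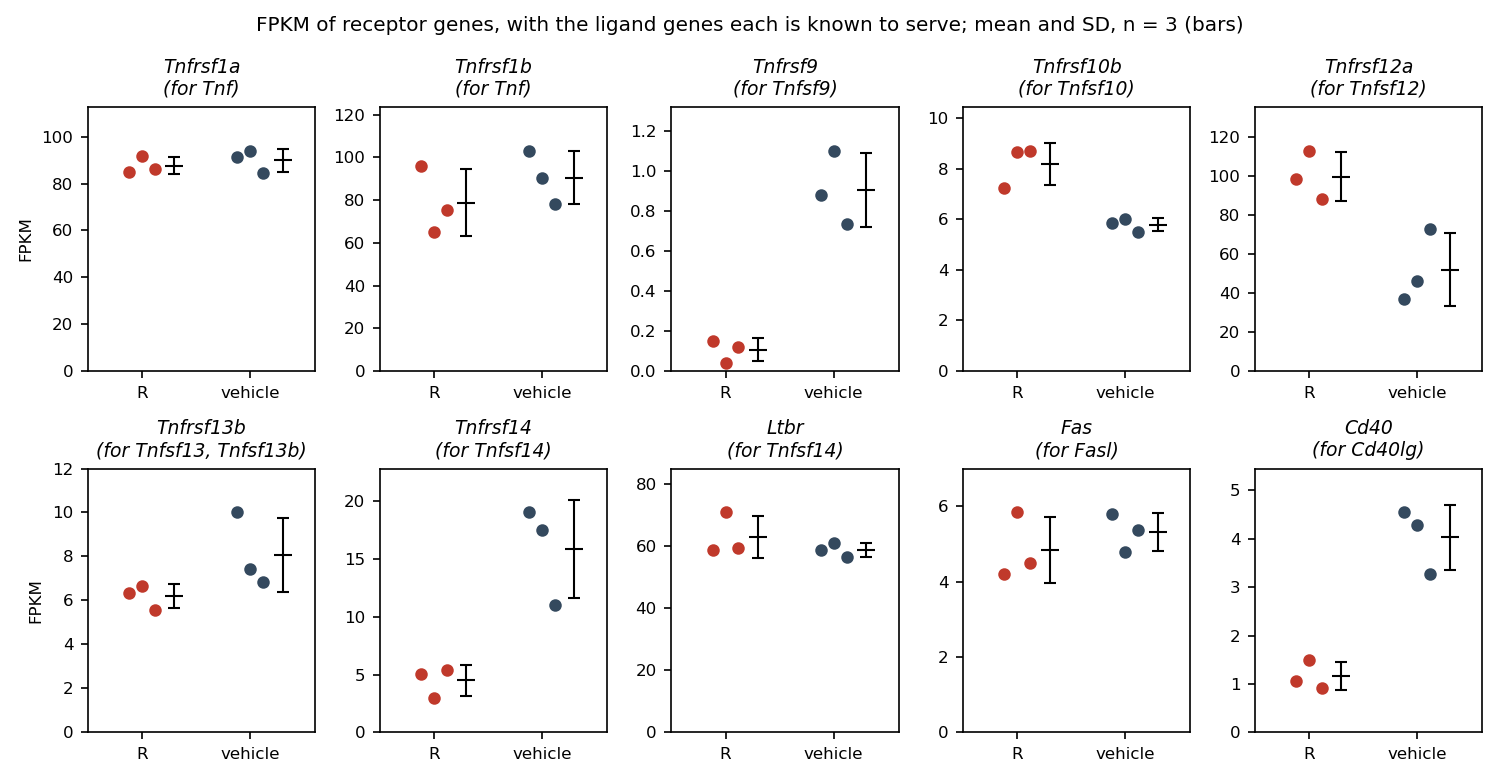
FPKM (vertical axis, from 0) of 10 receptor genes in the 3 R libraries (left, red) and the 3 vehicle libraries (right, dark), with mean and SD and with the ligand gene in brackets. Tnfrsf14, Cd40, Tnfrsf9 and, by a narrow gap, Tnfrsf13b are lower in every R library, Tnfrsf12a and Tnfrsf10b are higher, and Tnfrsf1a, Tnfrsf1b, Ltbr and Fas overlap.

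Of 25 further receptors of the family, 16 were tested: 2 fell in R, 0 rose and 14 did not pass, with a median log2 change of 0.12 beside 0 over all tested genes. The share that passed was 12.5%, beside 6.82% of all tested genes. The other receptor that fell was Cd40, which activates antigen-presenting cells (1.16 ± 0.291 FPKM in R and 4.03 ± 0.678 FPKM in vehicle, SD, n = 3 each; log2 change -1.22, SE 0.15, limma adjusted p = 0.0053). Of 11 further ligands 1 was tested, the skin appendage ligand Eda, and it did not pass (log2 change 0.04, limma adjusted p = 0.94). Among the 10 untested ligands, Tnfsf4, Tnfsf15 and Fasl had all R values below all vehicle values and are named for that. Such an order held in 9.87% of untested genes with an average of at least 10 reads. Tnfsf4 and Fasl were below that average, so this share does not cover them. Tnfsf4 had 0.025, 0.0302 and 0 FPKM in R and 0.159, 0.145 and 0.109 FPKM in vehicle. For Fasl the groups were parted by 0.0475 FPKM in R against 0.0516 FPKM in vehicle.

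Among the genes of death signalling, which work downstream of Fas, TRAIL and TNF receptors, 1 of 12 fell in R, 0 rose and 11 did not pass. That is 8.33% past the threshold, near the 6.82% of all tested genes. Mlkl, the pore-forming executor of necroptosis, had 8.13, 9.75 and 8.19 FPKM in R and 19.4, 17.3 and 18.5 FPKM in vehicle. Each R library was far below each vehicle library (log2 change -1, SE 0.1, limma adjusted p = 0.002). Casp8, the caspase that death receptors recruit, stood at 21.9 ± 1.15 FPKM in R and 27.7 ± 1.99 FPKM in vehicle and missed the threshold (SD, n = 3 each; limma adjusted p = 0.072). The log2 change was negative in 11 of the 12, with a median of -0.22, and positive for Tradd. Among all 11862 tested genes it was negative in 6018, with a median of 0.

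The adaptors and ubiquitin enzymes that carry the TRAF branch gave 4 falls among 20 tested genes, 0 rises and a median log2 change of -0.16. The share that passed was 20%, beside 6.82% of all tested genes. Birc3, a ubiquitin ligase that restrains cell death, fell to 5.06 ± 0.139 FPKM in R, against 9.77 ± 1.5 FPKM in vehicle (SD, n = 3 each; log2 change -0.82, limma adjusted p = 0.0098). Traf1, an adaptor that binds TNF receptor type II, had 0.675 ± 0.0533 FPKM in R and 1.65 ± 0.309 FPKM in vehicle (limma adjusted p = 0.032). It met the minimum for testing through the vehicle libraries alone, so its place among the 4 falls is no support for that count. Rnf31, the catalytic subunit of the linear ubiquitin ligase, had 5.97 ± 0.176 FPKM in R and 9.58 ± 1.23 FPKM in vehicle (limma adjusted p = 0.022). Tnfaip3, the A20 enzyme that ends NF-kappaB signalling, had 4.74 ± 0.209 FPKM in R and 6.97 ± 0.661 FPKM in vehicle (limma adjusted p = 0.034). The call of Birc3 held whichever library was left out. Those of Rnf31 and Tnfaip3 held when vehicle replicate 3 was left out and ended when any other library was (highest adjusted p 0.079 and 0.14). That of Traf1 held when vehicle replicate 2 was left out and ended when any other library was (highest adjusted p 0.13). With unfiltered genes these 3 calls ended too (adjusted p = 0.062 to 0.094).

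Of 8 genes for shedding and processing of ligands, 1 fell in R, 0 rose and 7 did not pass. With this 1 gene, 12.5% passed, beside 6.82% of all tested genes. Rhbdf2, which brings the TNF-releasing protease to the surface of leukocytes, was at 10.1 ± 0.769 FPKM in R and 16.7 ± 2.68 FPKM in vehicle (SD, n = 3 each; log2 change -0.66, limma adjusted p = 0.027). Its call held when vehicle replicate 3 was left out and ended when any other library was (highest adjusted p 0.082), and it ended with unfiltered genes (adjusted p = 0.077). Adam17, that protease, was at 28.3 ± 3.65 FPKM in R and 38.5 ± 4.46 FPKM in vehicle and did not pass (limma adjusted p = 0.089). Sppl2a, an intramembrane protease that cuts the TNF stalk, had a log2 change of -0.45 (limma adjusted p = 0.052). Rhbdf1 went the other way, at 11.6 ± 1.21 FPKM in R and 6.91 ± 1.81 FPKM in vehicle (log2 change 0.69, limma adjusted p = 0.066). For Rhbdf1 and Timp3 all R values lay above all vehicle values, as in 13.9% of tested genes, and neither passed. Of the 8 log2 changes 5 were negative and 3 positive, beside 6018 negative and 5844 positive among all tested genes. Of 8 factors that set the decay or stability of Tnf mRNA, 0 passed in limma. An unadjusted limma p under 0.05 was found for 2 of the 8, beside 2846 of all 11862 tested genes. The 2 were Hnrnpd (log2 change -0.27) and Zfp36l1 (log2 change -0.51). Over the 6 lists, 8 of 65 tested genes were lower in R and 0 higher, a share of 12.3% that passed beside 6.82% of all tested genes. The 8 include Traf1.

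**Figure D4:**
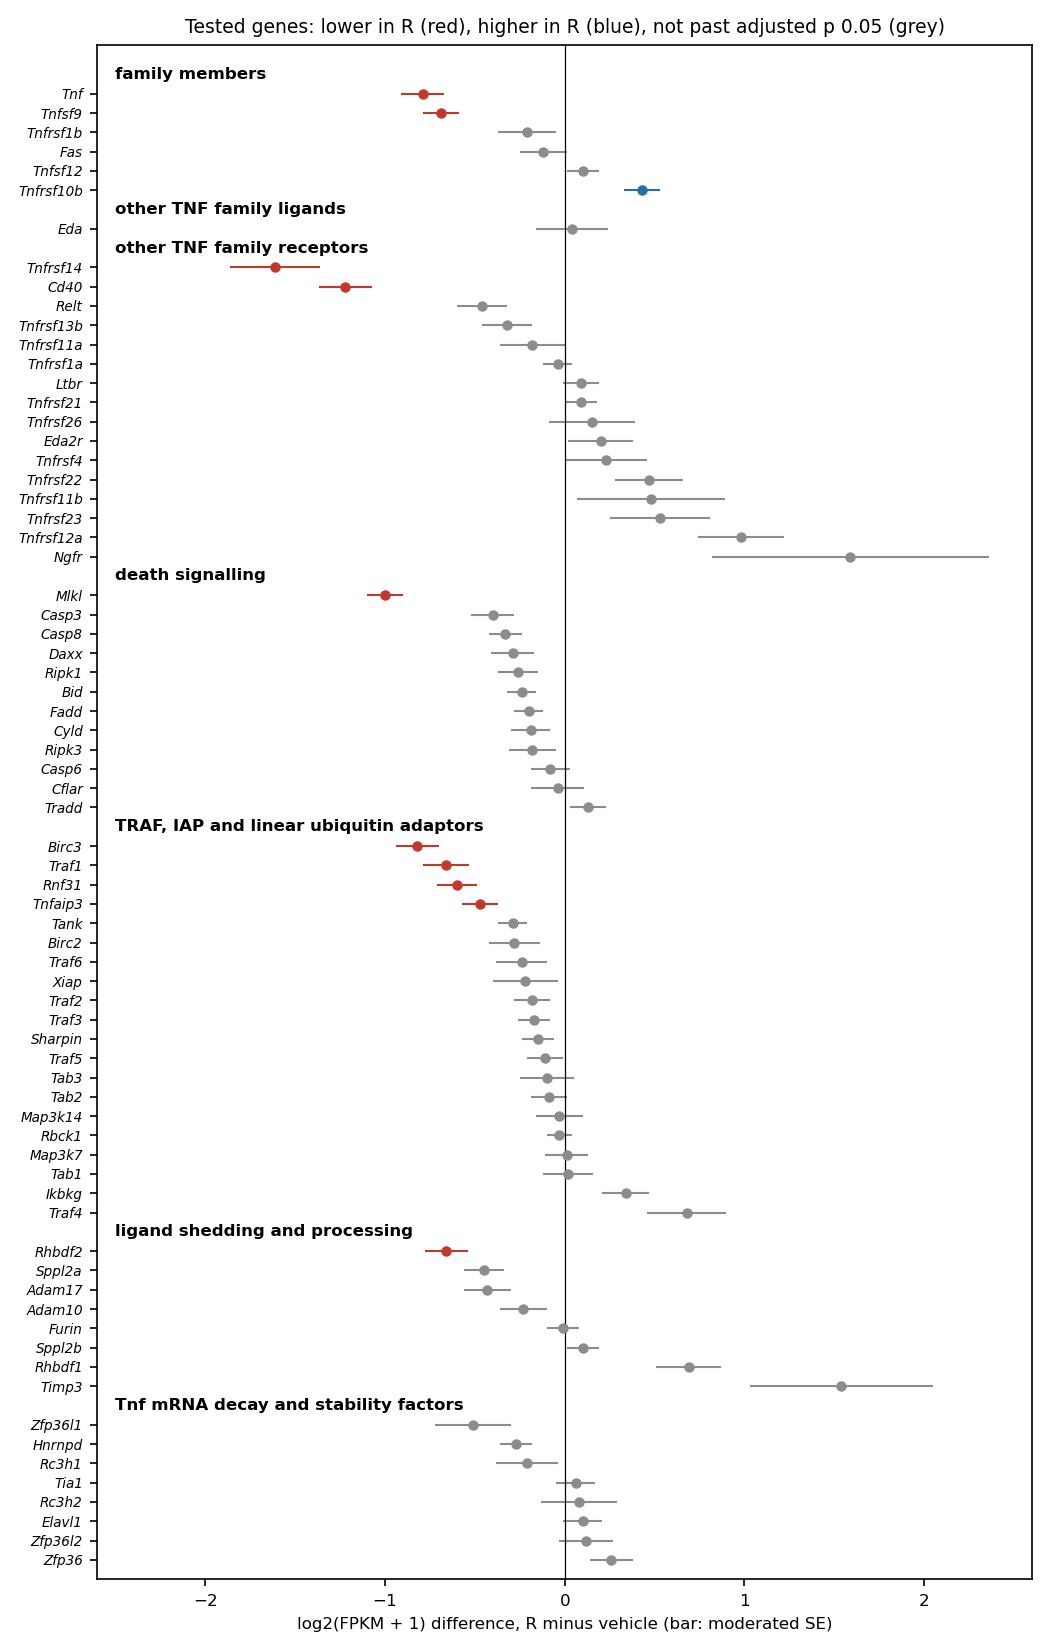
Difference in log2(FPKM + 1), R minus vehicle (horizontal axis), with its moderated SE for the 6 tested members and the 65 tested genes of the 6 lists. Points left of 0 are lower in R; red genes fell, the blue gene rose and grey genes did not pass.

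The genes with the most similar pattern to a called member were found by Pearson's r of log2(FPKM + 1) over the 6 libraries, which share the 2-group layout, so that any gene with a clean group difference scores high. For Tnf they were Rab19 (r = 0.9945; 1.65 ± 0.53 FPKM in R and 4.54 ± 0.48 FPKM in vehicle) and Depdc7 (r = 0.9923). For Tnfsf9 they were the mitotic topoisomerase gene Top2a (r = 0.9955; 16.1 ± 1.42 FPKM in R and 26.2 ± 1.43 FPKM in vehicle) and Tpst1 (r = 0.9951). For Tnfrsf10b they were Terf2ip (r = 0.9966) and Nr2f2 (r = 0.994). An r over 0.95 was reached by 165 tested genes with Tnf, 245 with Tnfsf9 and 49 with Tnfrsf10b, predicted gene models left out.

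**Figure D5:**
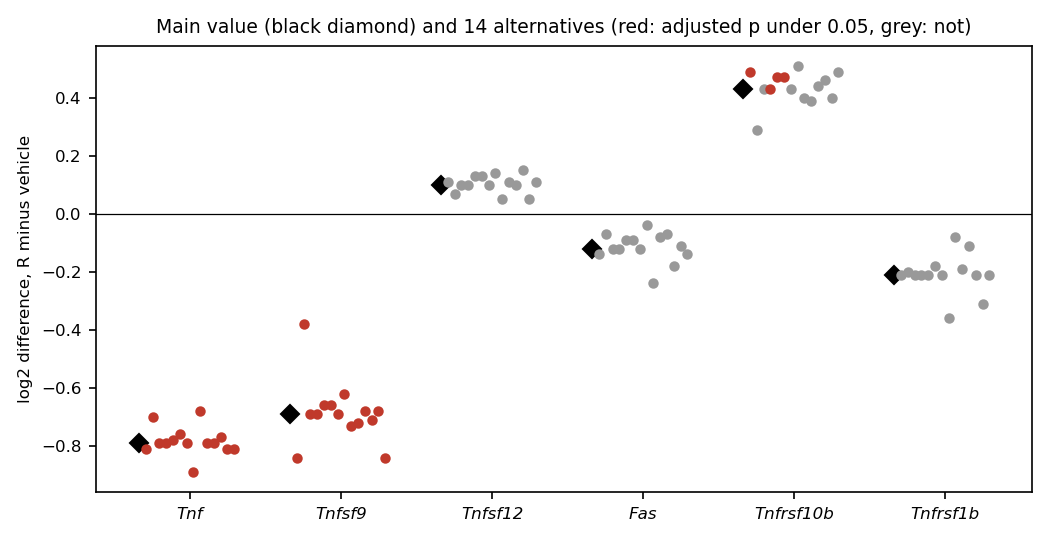
Log2 difference, R minus vehicle (vertical axis), of the 6 tested members in the reported fit (black diamond) and under 14 alternatives (dots, red where adjusted p was under 0.05). Every dot of Tnf and Tnfsf9 is red and below 0, while 10 of the 14 dots of Tnfrsf10b are grey.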

How the data were processed

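RNA sequencing values of 6 libraries were taken from 1 table of FPKM (fragments per kilobase, relative to library size), which the authors computed and deposited. Per the submitters' processing notes, the genome was build GRCm38 (mm10), and edgeR 3.18.1 is among the tools. The aligner, counter, annotation and strandedness were not given in the sources used here. A last line of the table broke off and was not used. Symbols were found in GENCODE M21 for 49302 of 49328 identifiers.

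Depth was estimated from FPKM times exon length, where 98.3% to 98.4% of values under 20.5 reads were whole within 0.02 reads. Reads so derived cover counting error only. Genes with at least 1 FPKM in at least 3 libraries (11862) were tested as log2(FPKM + 1) with limma 3.58.1 under R 4.3.3, with 2 groups and a trended empirical Bayes prior. P-values were adjusted by Benjamini-Hochberg over all tested genes, at a threshold of 0.05. A log2 change is R minus vehicle and understates the change of low genes. The fit was also run on simulated counts with a fixed spread, which cannot show how well it treats the variation between these libraries.

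The members, the lists and the alternatives were chosen with earlier results of these data known. The genes named are the 10 members, every gene of the 6 pathway lists past the threshold, at least the 2 genes with the smallest p in each list, the 2 genes most like each called member, and known partners of the members. One listed gene is not reported here and was left out of the list counts. Whether replicates are separate cultures or animals is not in the labels, and the p-values then reflect only how these samples vary, which may be technical.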

Additional observations from a re-analysis of the deposited data

How the results depend on the processing

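The falls of Tnf and Tnfsf9 kept their direction and their call under all 14 alternatives, with log2 changes of -0.89 to -0.68 and -0.84 to -0.38. Tnfsf9 met the stricter filter, with its minimum of 5 FPKM, through the vehicle libraries alone, so that alternative is no support for its fall. The rise of Tnfrsf10b kept its direction (0.29 to 0.51) but passed in 4 of the 14. Fas, Tnfsf12 and Tnfrsf1b passed in 0 of the 14 and kept their signs. Without a filter on low values 65 genes were higher and 279 lower in R, 0 members were higher, and 4 listed pathway genes were lower, against 8 in the reported fit. With the stricter filter 1 pathway gene was higher (Tnfrsf12a). With the filter on reads 0 members were higher. Leaving out each library in turn gave 63 to 352 genes higher and 272 to 527 lower in R, 0 to 0 members higher and 2 to 2 lower, and 0 to 4 pathway genes higher and 4 to 8 lower, from fewer samples. The 4 higher ones, without vehicle replicate 3, were Tnfrsf12a, Tnfrsf23, Traf4 and Tnfrsf22. The fit with a replicate block gave 0 members higher and 2 lower, and 2 pathway genes higher, Timp3 and Ngfr, and 6 lower, as the calls of Traf1 and Tnfaip3 ended (adjusted p = 0.061 and 0.072). Deviations of same-numbered libraries correlated at 0.14, -0.01 and -0.03, and those of R replicate 2 and vehicle replicate 3 at 0.14 too. With 3 libraries a group, such values cannot decide whether replicates were paired. The numbers were not taken as pairs because the labels do not state any. The causes of the shifts between the fits are a separate matter. They were not tested. Depth limits Tnfsf10, Tnfsf13, Tnfsf13b and Tnfsf14, with 0 to 76 reads per library.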

Other observations

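Some listed genes had 1 library far above the rest of its group, and they are named here after their values were seen. Ngfr, the neurotrophin receptor of the family, had 40.8, 8.07 and 5.09 FPKM in R and 8.69, 1.98 and 1.9 FPKM in vehicle. Tnfsf11, which encodes the osteoclast factor RANKL, had 0.144, 0.696 and 0.124 FPKM in R and 0.0524, 0.191 and 3.67 FPKM in vehicle. Timp3, which is no TNF family gene but encodes an inhibitor of the TNF-releasing protease, had 34.1, 55.3 and 140 FPKM in R and 14.2, 21 and 32.6 FPKM in vehicle. Its groups were parted narrowly, by 34.1 FPKM in the lowest R library against 32.6 FPKM in the highest vehicle library.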
